A study of Mus musculus with 18 samples.

Results

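The replication-dependent histone genes are the 67 protein-coding genes of the mouse mm9 annotation (GENCODE vM1) whose symbols begin with *Hist1h*, *Hist2h*, *Hist3h*, or *Hist4h*. They were taken by symbol from the 22367 protein-coding genes on chromosomes 1 to 19, X, and Y. They comprise 6 genes for the linker histone H1, 19 for H2A, 18 for H2B, 11 for H3, and 13 for H4. A gene is called open here when the midpoint of a deposited open region lies within 1 kb of one of its annotated transcription starts. Of the 67 histone genes, 55 were open (82.1%, 95% Wilson interval 71.3% to 89.4%), against 56.7% of all protein-coding genes. The interval covers counting error only, and neighboring genes that share a region are not independent.

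The accessible DNA of liver macrophages (LMs, labeled as Kupffer cells) was cut and tagged by a transposase in fast-ATAC-Seq reactions of 50000 cells. The LMs came from adult male C57BL/6J mice fed a high-fat, high-sucrose diet (HFHSD) for 4 weeks and sampled at zeitgeber time 10 (ZT10) or ZT22. All mice carried floxed alleles. Controls received AAV-TBG-GFP, whereas *Reverb*-hDKO mice, labeled ReverbhDKO, and *Reverb/Scap*-hTKO mice, labeled Reverb/ScaphTKO, received AAV-TBG-CRE, whose TBG promoter drives Cre in hepatocytes rather than in the LMs measured here. There were 3 replicates of each of 3 genotypes at both times, or 18 libraries. The open regions form 1 list, with positions but no read count, score, or sample. It is taken here as pooled over all 18 libraries, which the list itself does not state. Depth and replicate spread are therefore unknown, genotypes and times could not be compared at the histone genes, and how many of the cells had a region open cannot be told.

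Replication-dependent histones are made mainly in S phase, when new DNA has to be packaged. Pairs of H3 and H4 and of H2A and H2B form the core of the nucleosome, and H1 binds the linker DNA between cores. Their genes lie in clusters, mostly lack introns, and give mRNAs that end in a conserved stem-loop in place of a poly(A) tail. NPAT and its partners act at these genes in histone locus bodies, OCT1 (*Pou2f1*) binds the octamer of H2B promoters, HINFP binds an element of H4 promoters, and NF-Y binds CCAAT. H1t, TH2A, and TH2B, the products of *Hist1h1t*, *Hist1h2aa*, and *Hist1h2ba*, are testis histones.

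The sequences below, read from NCBIM37 (the assembly behind mm9), show what the open regions hold. The first 3 are regions between an H2A and an H2B gene that are transcribed away from each other, chosen as the pairs with the closest starts that share a region. Capitals mark matches to the TATA box TATAAA, the NF-Y element CCAAT, the octamer ATTTGCAT, the H1 box AAACACAAA, the H4 element GGTCCG, and the E2F forms TTTCCCGC, TTTGGCGC, TTTGCCGC, and TTTCGCGC. Matches are on either strand, but TATAAA was read on the strand of the gene or, between paired genes, on both. Sequences stop 30 bases after a start where a longer 5′ untranslated part is annotated.
Hist1h2ae/Hist1h2bg, chr13:23663060-23663275, plus strand: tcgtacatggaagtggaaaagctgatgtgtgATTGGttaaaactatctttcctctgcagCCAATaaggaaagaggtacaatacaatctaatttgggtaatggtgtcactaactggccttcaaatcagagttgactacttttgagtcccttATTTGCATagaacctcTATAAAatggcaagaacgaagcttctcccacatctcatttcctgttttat
Hist1h2ah/Hist1h2bk, chr13:22127562-22127719, plus strand: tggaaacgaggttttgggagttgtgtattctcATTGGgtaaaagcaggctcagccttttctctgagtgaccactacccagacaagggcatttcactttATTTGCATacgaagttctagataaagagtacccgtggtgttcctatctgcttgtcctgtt
Hist1h2bf/Hist1h2ad, chr13:23666120-23666279, plus strand: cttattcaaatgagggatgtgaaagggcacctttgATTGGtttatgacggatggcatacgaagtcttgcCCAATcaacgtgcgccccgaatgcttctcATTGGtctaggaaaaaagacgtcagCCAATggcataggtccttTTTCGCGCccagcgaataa
In the first region the octamer lies before the TATAAA of *Hist1h2bg*, and CCAAT is present on both strands. The second has an octamer and 1 CCAAT match, and the third has 4 CCAAT matches and an E2F form but no octamer.

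The next 3 are the nearest regions of members with many open bases, 1 each for H2A, H2B, and H3. They are single examples, and the counts by type are given with the promoters. For H1 the same choice gave *Hist1h1c*, whose 80 bases up to the same limit held no match and are not printed. No H4 region was chosen.
Hist3h2a (H2A), chr11:58768014-58768216, plus strand: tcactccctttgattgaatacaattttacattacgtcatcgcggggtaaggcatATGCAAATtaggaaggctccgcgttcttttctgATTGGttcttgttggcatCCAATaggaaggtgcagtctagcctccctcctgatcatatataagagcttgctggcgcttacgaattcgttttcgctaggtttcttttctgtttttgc
Hist1h2be (H2B), chr13:23713012-23713207, minus strand: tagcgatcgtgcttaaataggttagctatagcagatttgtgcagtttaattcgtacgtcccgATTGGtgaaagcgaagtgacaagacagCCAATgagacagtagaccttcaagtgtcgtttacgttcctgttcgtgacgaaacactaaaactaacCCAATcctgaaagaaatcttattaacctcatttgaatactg
Hist1h3a (H3), chr13:23854240-23854430, minus strand: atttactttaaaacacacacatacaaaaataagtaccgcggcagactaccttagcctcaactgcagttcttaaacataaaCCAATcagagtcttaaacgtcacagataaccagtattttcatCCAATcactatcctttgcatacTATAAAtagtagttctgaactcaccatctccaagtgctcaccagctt
*Hist3h2a* holds an octamer with 2 CCAAT matches, *Hist1h2be* 3 CCAAT matches, and *Hist1h3a* 2 CCAAT matches and TATAAA. The region of *Hist1h2be* lies at an annotated start far upstream of its coding part.

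The last 4 surround starts that had no open region within 1 kb, and are shown because their elements can be set beside those of the open members.
Hist1h1t (testis H1), chr13:23787430-23787709, plus strand: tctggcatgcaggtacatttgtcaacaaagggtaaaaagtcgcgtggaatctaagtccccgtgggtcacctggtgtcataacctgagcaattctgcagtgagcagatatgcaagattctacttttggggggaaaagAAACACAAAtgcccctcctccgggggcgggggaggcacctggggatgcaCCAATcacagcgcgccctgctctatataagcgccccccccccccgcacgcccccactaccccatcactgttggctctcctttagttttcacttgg
Hist1h2ba (testis H2B), chr13:24025976-24026275, minus strand: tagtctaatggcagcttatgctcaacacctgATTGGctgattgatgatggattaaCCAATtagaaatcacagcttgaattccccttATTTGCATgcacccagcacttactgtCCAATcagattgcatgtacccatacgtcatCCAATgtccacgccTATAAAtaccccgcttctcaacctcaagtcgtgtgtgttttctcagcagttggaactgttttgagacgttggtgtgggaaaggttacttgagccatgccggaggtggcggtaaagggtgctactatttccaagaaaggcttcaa
Hist1h4k (H4), chr13:21842325-21842624, minus strand: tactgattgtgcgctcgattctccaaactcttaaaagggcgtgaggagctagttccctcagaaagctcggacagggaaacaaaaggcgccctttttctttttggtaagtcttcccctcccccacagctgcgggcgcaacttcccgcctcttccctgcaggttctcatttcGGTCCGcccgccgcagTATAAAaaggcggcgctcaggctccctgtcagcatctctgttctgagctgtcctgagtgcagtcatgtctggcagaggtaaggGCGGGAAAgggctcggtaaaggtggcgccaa
Hist1h2bq (H2B), chr13:21902004-21902265, minus strand: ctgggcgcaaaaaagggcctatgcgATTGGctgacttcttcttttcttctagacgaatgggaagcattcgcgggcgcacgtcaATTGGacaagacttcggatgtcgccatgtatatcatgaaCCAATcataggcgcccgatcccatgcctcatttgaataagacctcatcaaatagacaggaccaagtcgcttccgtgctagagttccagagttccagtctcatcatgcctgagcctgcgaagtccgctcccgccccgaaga
*Hist1h1t* holds the H1 box, *Hist1h2ba* the octamer with TATAAA and 4 CCAAT matches, and *Hist1h4k* the H4 element with TATAAA. The sequence at *Hist1h2bq* occurs letter for letter at *Hist1h2br* (chr13:21925415-21925676, plus strand).

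All 11 genes for H3, the core histone whose tail carries many of the modifications of chromatin, were open (100%, Wilson interval 74.1% to 100%). With a limit of 500 bp, 10 of the 11 were open (90.9%). With each region given only to its nearest start, 9 of the 11 were (81.8%). Of the H2B genes, 15 of 18 were open (83.3%, 60.8% to 94.2%), and of the H2A genes 15 of 19 (78.9%, 56.7% to 91.5%). The share was 76.9% for H4 (10 of 13, 49.7% to 91.8%) and 66.7% for H1 (4 of 6, 30.0% to 90.3%). The intervals of the 5 types overlap, so at these numbers no order of the types is shown.

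**Figure D1:**
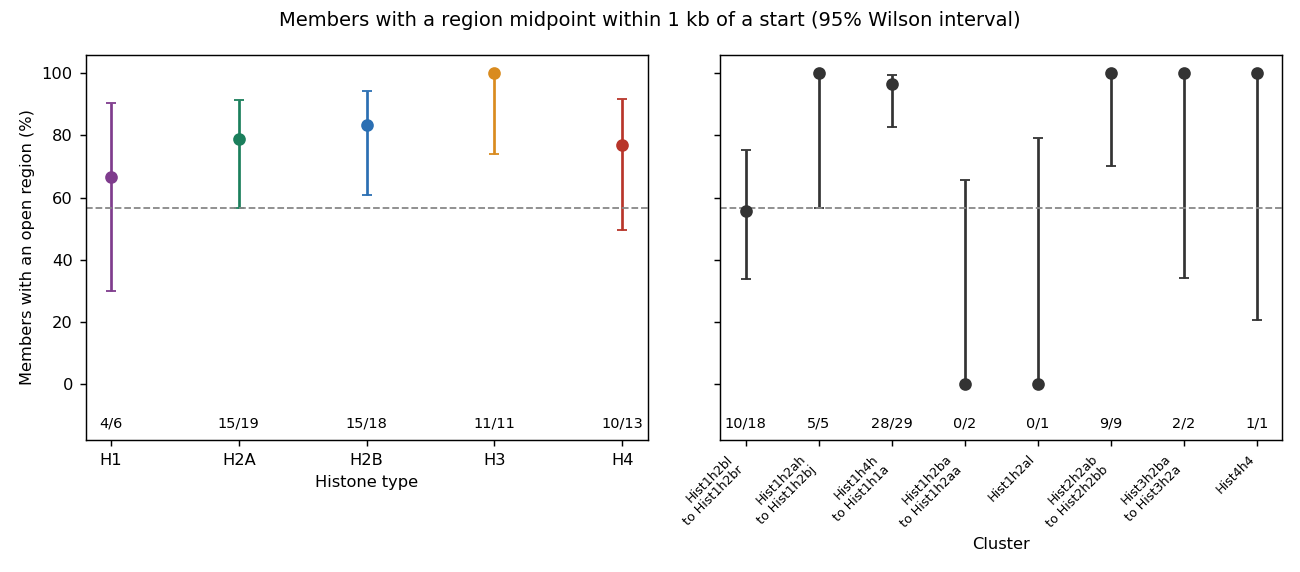
Share of histone genes with an open region midpoint within 1 kb of a start (y axis, percent) by histone type (left) and by cluster (right); bars are 95% Wilson intervals, the dashed line is the 56.7% of all protein-coding genes, and the counts stand below. H3 is at 100%, and the cluster from Hist1h2bl to Hist1h2br is at 55.6%, the lowest of the clusters with 5 or more genes.

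Among the H1 genes, *Hist1h1a*, *Hist1h1c*, *Hist1h1d*, and *Hist1h1e* were open, and *Hist1h1b* and *Hist1h1t* were not. The region nearest the start of *Hist1h1a* had its midpoint 1.5 bp downstream of it, that of *Hist1h1c* 53 bp, and that of *Hist1h1d* 77.5 bp downstream. *Hist1h1e* was the only 1 of the 4 with the midpoint upstream, at -76.5 bp. *Hist1h1c* had the most open bases of the type, 448 bp in 2 regions. The nearest region to *Hist1h1b* (chr13:21871294-21871453) had its midpoint 1120.5 bp from the start, just outside the limit, and lay 299 bp beyond the other end of the gene. For *Hist1h1t* the nearest midpoint was 2695.5 bp away.

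All 15 open H2A genes and all 15 open H2B genes had the nearest region midpoint upstream of the start. The median was -75.5 bp for H2A, with a range from -375 to -27 bp, and -108 bp for H2B, from -207.5 to -18.5 bp. In 12 places an H2A and an H2B gene were transcribed away from each other with 175 to 305 bp between their starts (median 227.5 bp), so that 1 region can lie upstream of both. In 9 of the 12 pairs a single region had its midpoint between the 2 starts, and these regions had a median width of 210 bp. The 175 bp between *Hist1h2ae* and *Hist1h2bg* lay wholly inside a region of 237 bp. Of the 177 bp between *Hist1h2ah* and *Hist1h2bk*, 128 bp were open, and of the 184 bp between *Hist1h2bf* and *Hist1h2ad*, 130 bp. The 3 pairs with no region were *Hist1h2bq/Hist1h2ao*, *Hist1h2ap/Hist1h2br*, and *Hist1h2ba/Hist1h2aa*. One more pair, *Hist1h2bh* (H2B) and *Hist1h3f* (H3), had starts 692 bp apart with a region of 256 bp between them, nearer to *Hist1h2bh*.

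Among H2A genes *Hist3h2a* had the most open bases, 485 bp in 2 regions, and its widest region measured 276 bp. *Hist1h2an* and *Hist1h2ag* had the widest regions of their clusters within 1 kb of a histone start, with 241 and 237 bp. These regions were shared with the paired H2B genes *Hist1h2bp* and *Hist1h2bj*, whose starts lay nearer. The H2A genes with no region were *Hist1h2aa*, *Hist1h2al*, *Hist1h2ao*, and *Hist1h2ap*. Among H2B genes *Hist1h2be* had the most open bases, 399 bp in 2 regions, but these lay at an annotated start far upstream of its coding part. Its first coding base lay at position 23677825 of chromosome 13, where another region of 204 bp (chr13:23677825-23678028) began and extended upstream on the minus strand of the gene. The H2B genes with no region were *Hist1h2ba*, *Hist1h2bq*, and *Hist1h2br*.

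The H3 genes had 7 of 11 nearest midpoints upstream of the start, with a median of -64 bp and the widest spread of the types, from -738.5 to 404.5 bp. *Hist1h3e* had the widest region within 1 kb of any histone start (328 bp), and *Hist1h3f* the most open bases of the type (488 bp in 2 regions). The nearest region of *Hist1h3f* had its midpoint 404.5 bp downstream of the annotated start and 28.5 bp before the first coding base. At the other extreme, the region counted for *Hist1h3h* lay at -738.5 bp, inside the gene body of its neighbor *Hist1h2ai*. The call of *Hist2h3c1* rested on a start annotated within the neighboring *Hist2h2aa1*, with the shared region 314.5 bp upstream of that start and 1511.5 bp before the first coding base of *Hist2h3c1*.

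Of the H4 genes, *Hist2h4* had the most open bases of all 67 genes, 659 bp in 3 regions, of which the widest measured 273 bp. *Hist1h4h* had 552 bp in 3 regions, and *Hist4h4*, alone on chromosome 6, had 474 bp in 2 regions of up to 253 bp. The nearest midpoints of the 10 open H4 genes had a median of -71.75 bp. *Hist1h4j* was the farthest of them, at -736 bp. *Hist1h4k*, *Hist1h4m*, and *Hist1h4n* were not open, with the nearest midpoint 3462, 24318, and 44768 bp from the start.

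**Figure D2:**
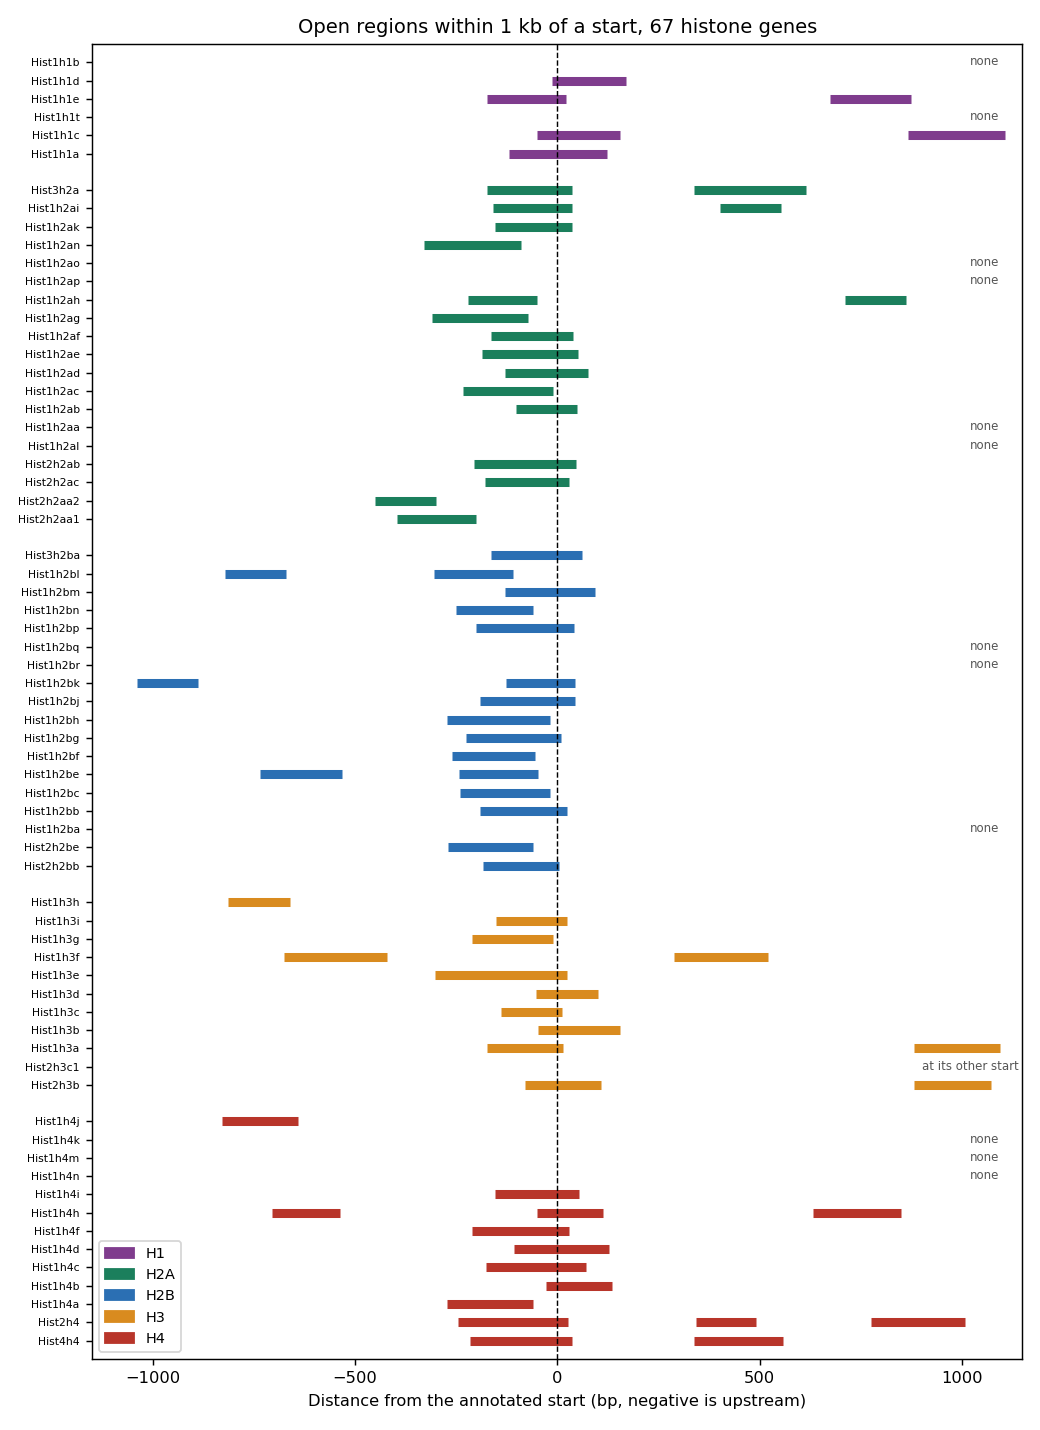
Extent of every open region with its midpoint within 1 kb of a start, drawn as a bar against the distance from the annotated start in bp (x axis) for each of the 67 histone genes (y axis), colored by type; genes marked none have no such region, and the region of Hist2h3c1 lies at another start and is not drawn. Most bars lie at or just before 0, and those of H2A and H2B reach mainly upstream.

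Over all histone types, the nearest midpoint had a median of -76.5 bp (quartiles -137.8 and -37.5 bp) and was upstream in 45 of 55 genes (81.8%). In the 9 H2A and H2B pairs with a region between their starts, the same region was counted as upstream for both genes. *Hist2h2aa1* and *Hist2h3c1* also shared their nearest region, so these genes are not independent. For all open protein-coding genes the median was -36.5 bp, and 69.6% were upstream. These distances used the nearest annotated start of each gene, without adjustment for the number of starts or for repeated sequence. The share of sequence near the start that is unique in the genome had a median of 80.69% for the histone genes. For all protein-coding genes it was 100%. It was often lower downstream than upstream, as at *Hist1h3e* (22.0% and 97.2%), but not at *Hist1h2bm* (78.2% and 69.1%). Whether this moved the distances was not tested. Measured from the first coding base instead of the annotated start, the median distance of the histone genes was -117 bp. By this measure 52 of 55 midpoints were upstream, including all 11 of H3 and 9 of 10 of H4. In 10 of the 67 gene models the annotation starts at the first coding base, which shifts the distances of these genes. Base by base, the histone genes were most often inside a region at -91 bp, where 61.2% of all 67 were covered. The highest coverage was 83.3% at -118 bp for H2B, 68.4% at -96 bp for H2A, 72.7% at -30 bp for H3, 61.5% at the start itself for H4, and 66.7% at 3 bp for H1. Over all protein-coding genes it was 29.3% at -72 bp.

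**Figure D3:**
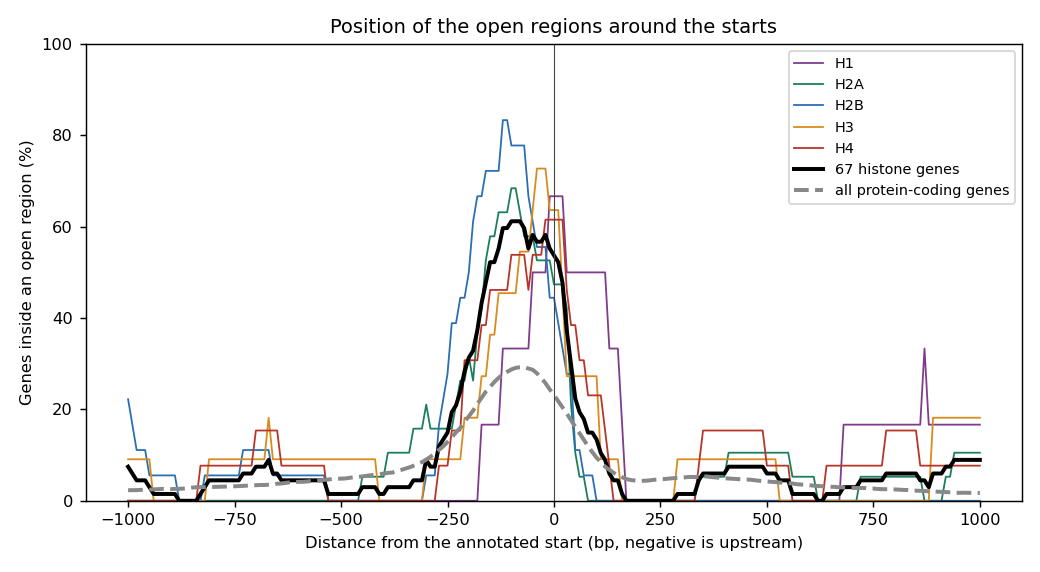
Percent of genes inside an open region (y axis) by distance from the annotated start in bp (x axis), for the 67 histone genes, each histone type, and all protein-coding genes. The line of the 67 genes reaches 61.2% at -91 bp, against 29.3% at -72 bp for all genes, and H2B lies farther upstream than H1.

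The 54 distinct regions near histone starts had a median width of 207 bp (151 to 328 bp), and 5 of them (9.26%) had the most common width of the list, 151 bp. Of the 19627 regions near all protein-coding starts, the median was 189 bp and 29.0% measured 151 bp. The list as a whole had 69499 regions with a median of 160 bp. Within 1 kb, 14 of the 55 open genes had 2 or more (25.5%), against 47.4% of all open genes. The open bases per open gene had a median of 227 bp, against 302 bp. Both measures were taken over all annotated starts of a gene, and 5 of the 67 histone genes had more than 1 start. The comparisons with all genes were not adjusted for the number of starts or for repeated sequence. The median share of unique sequence near the starts was 80.69% for the histone genes, against 100% for all protein-coding genes. Whether this lowered the number of regions or open bases at the histone genes was not tested.

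Genes with less than 100 kb between neighbors were counted as 1 cluster, and each cluster was followed to 5 kb beyond its outer members. The histone genes then fell into 8 groups, of which 5 lie on chromosome 13. From *Hist1h4h* to *Hist1h1a* (chr13:23617919-23861283), 28 of 29 genes were open (96.6%, 82.8% to 99.4%), *Hist1h1t* being the exception. All 5 genes from *Hist1h2ah* to *Hist1h2bj* (chr13:22121982-22140545), all 9 of the *Hist2* cluster (chr3:96018839-96087924), *Hist3h2ba* and *Hist3h2a* on chromosome 11, and *Hist4h4* on chromosome 6 were open. From *Hist1h2bl* to *Hist1h2br* (chr13:21802632-21934399), 10 of 18 were open (55.6%, 33.7% to 75.4%), near the share of all genes. Its interval does not overlap that of the cluster from *Hist1h4h* to *Hist1h1a*. This is not a test, since genes that share a region are not independent. The intervals do overlap without the 6 genes whose starts lie in repeated sequence (83.3%, 55.2% to 95.3%). Among windows at least 90% unique, 1 gene from *Hist1h2bl* to *Hist1h2br* was left (0 of 1 open, against 9 of 10), too few for a comparison. The testis pair *Hist1h2ba* and *Hist1h2aa* had no region (0 of 2, up to 65.8%), and neither had *Hist1h2al*, which lies apart on the same chromosome (0 of 1, up to 79.3%).

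The spans of the 8 groups held 78 regions in 512321 bp, or 15.2 per 100 kb, against 2.61 per 100 kb over all chromosomes. Density was 16.4 per 100 kb from *Hist1h4h* to *Hist1h1a*, 26.9 from *Hist1h2ah* to *Hist1h2bj*, and 7.59 from *Hist1h2bl* to *Hist1h2br*, against 2.51 for the whole of chromosome 13. The *Hist2* cluster had 18.8 per 100 kb, against 2.12 for chromosome 3. The pair on chromosome 11 had 28.1 and *Hist4h4* 38.8, in short spans with 5 and 4 regions, against 4.05 and 2.67 for their chromosomes. Around the testis pair *Hist1h2ba* and *Hist1h2aa*, 1 region gave 9.02 per 100 kb, although neither gene was open, and around *Hist1h2al* there was no region (0 per 100 kb). Open bases made up 3.29% of the cluster from *Hist1h4h* to *Hist1h1a*, 1.46% of that from *Hist1h2bl* to *Hist1h2br*, and 0.464% of chromosome 13. These densities were not adjusted for the number of starts.

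Of the 78 regions, 54 lay near histone starts, 3 near the start of another protein-coding gene, and 21 elsewhere. The other genes with an open start were *Hfe*, the iron regulator of hemochromatosis, *Gm17658*, *Trim17*, and *H2afj*, a histone variant next to *Hist4h4*, whereas the Fc receptor gene *Fcgr1* in the *Hist2* cluster was not open. The 21 regions elsewhere had a median width of 151 bp, and 11 had exactly this width. Their median distance from the nearest histone gene was 2855 bp, and 5 lay inside the annotated body of one. Among these 5 was the region that begins at the first coding base of *Hist1h2be* (chr13:23677825-23678028), whose annotated start lies far upstream. Within the cluster from *Hist1h4h* to *Hist1h1a*, 61491 bp separated the region midpoint at the start of *Hist1h1e* from the next, at the start of *Hist1h2ac*. In the cluster from *Hist1h2bl* to *Hist1h2br*, the last 55102 bp of the span held none, and 6 of its 8 genes without a region lie there.

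**Figure D4:**
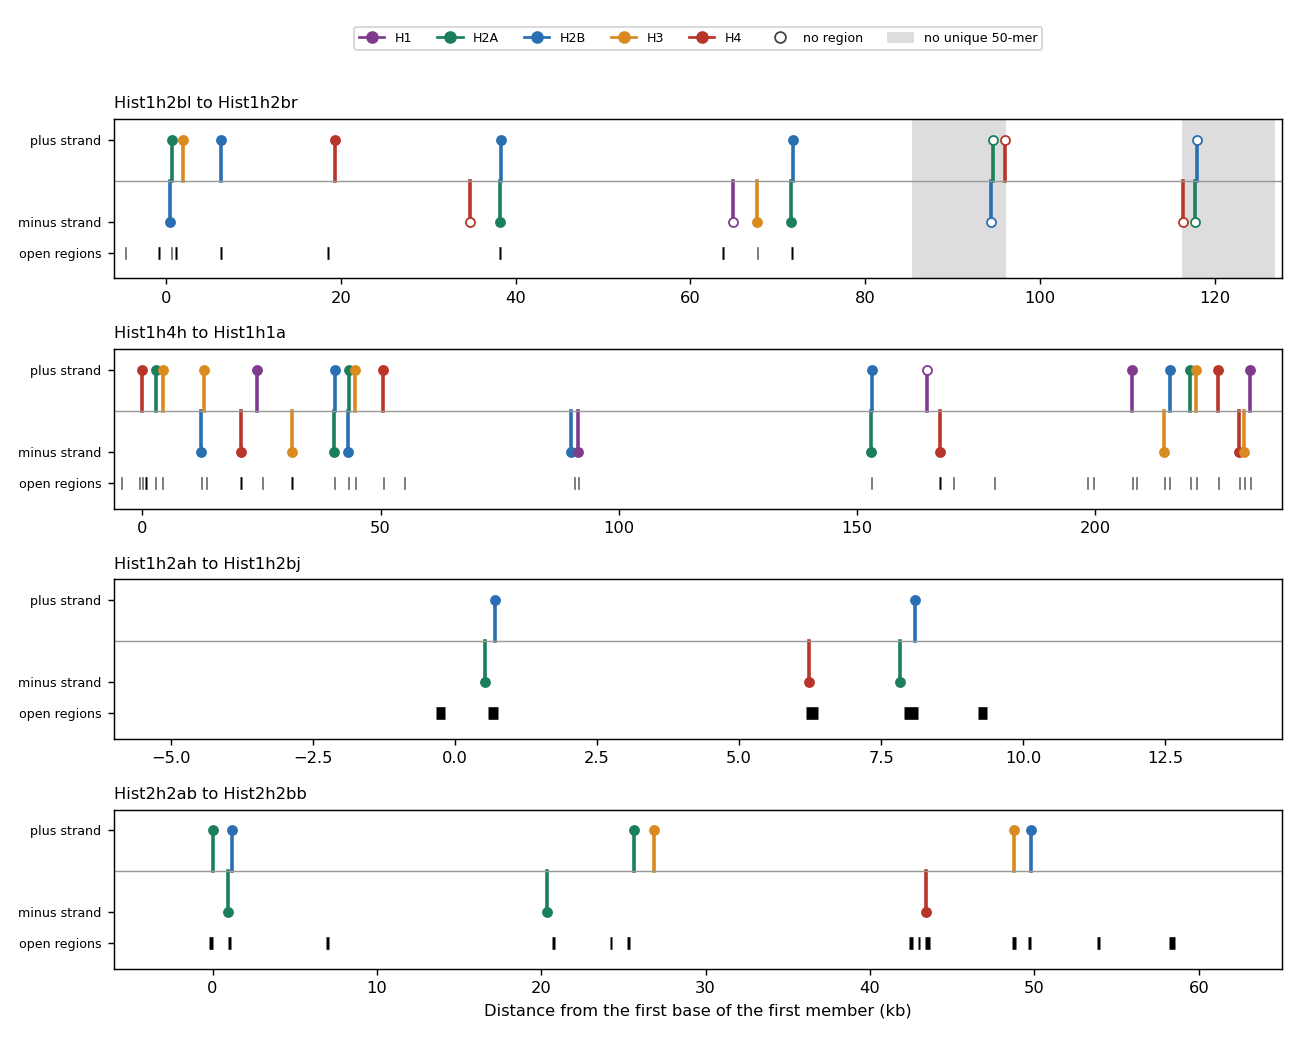
Starts of the histone genes (stems, up for the plus and down for the minus strand, colored by type, with open circles for genes without a region) and the open regions (ticks) in 4 clusters, by distance from the first base of the first member in kb (x axis); gray marks stretches of over 2 kb that hold histone starts and no unique 50-mer. In the cluster from Hist1h2bl to Hist1h2br the 2 gray stretches hold 6 genes and no region.

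These 6 genes, *Hist1h2bq*, *Hist1h2ao*, *Hist1h4m*, *Hist1h4n*, *Hist1h2ap*, and *Hist1h2br*, lie in sequence that the assembly holds in more than 1 copy. In a stretch of 10523 bp (chr13:21893127-21903649) and in 1 of 10369 bp (chr13:21924031-21934399), no run of 50 bases was unique in the genome, and 92.6% and 92.4% of these runs occurred 2 times. Neither stretch held an open region. The 2001 bases around the first coding base of *Hist1h2bq* differed from those of *Hist1h2br* at 0 positions, and those of *Hist1h2ao* from *Hist1h2ap* at 0. Compared in the same way, without gaps, *Hist1h4m* and *Hist1h4n* differed at 417 positions. Within 1 kb of the start, 0% of the 50-base runs were unique for these 4 genes, 7.02% for *Hist1h4m*, and 8.04% for *Hist1h4n*. Genome-wide, 2 of the 306 protein-coding genes whose windows had no unique run were open (0.654%), against 63.6% of those with at least 90% unique runs. How reads with several matches were treated is not given in the sources used here, and the part of the repeats in the missing regions was not tested. With the 6 genes left out, 55 of 61 histone genes were open (90.2%), and 10 of 12 in their cluster (83.3%).

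The 6 other genes with no region differed in this respect. The windows of *Hist1h1b* and *Hist1h1t* were unique throughout (100%), and those of *Hist1h2ba* and *Hist1h2aa* at 92.9%. *Hist1h4k* had 86.1% and *Hist1h2al* 66.4%. Members with windows of 50% to 90% uniqueness were open in 38 of 40 cases, whereas 23.5% of all genes in this range were. The nearest region itself was wholly unique for 50 of the 55 open histone genes and at least 84.8% unique for the others. The lowest windows among open genes were those of *Hist2h3c1* (24.8%), *Hist2h2aa1* (43.5%), and *Hist2h2aa2* (43.7%).

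**Figure D5:**
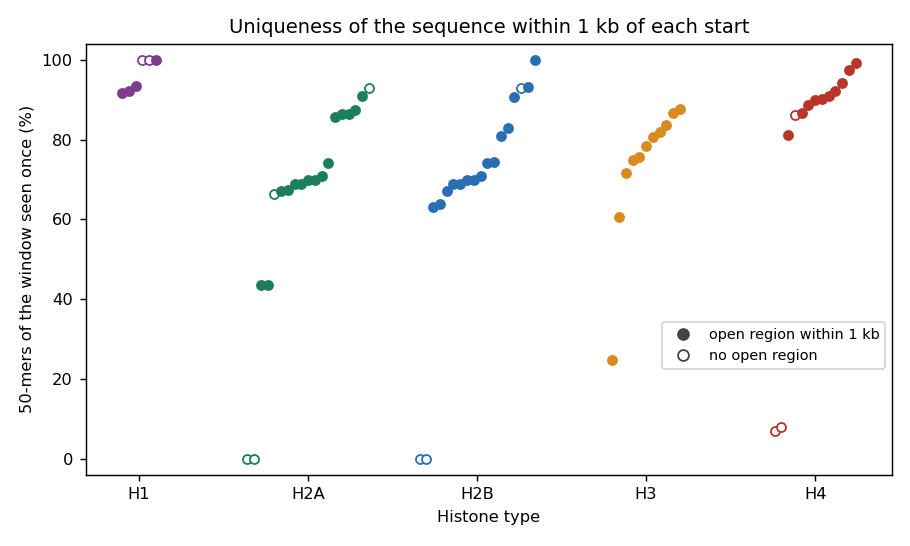
Percent of the 50-base runs within 1 kb of each start that occur once in the genome (y axis) by histone type (x axis), with 1 point per gene, filled where the gene is open. The points of the 6 repeated genes lie at 0% to 8.04% and are all unfilled, whereas the 2 unfilled H1 genes lie at 100%.

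The promoters, taken from 250 bp before to 50 bp after the start, differed in their elements by histone type. For *Hist1h2be* this window lay at the annotated start far upstream of its coding part. CCAAT was found in 57 of 67 (85.1%), against 35.9% of all protein-coding promoters, and by type in 6 of 6 for H1, 19 of 19 for H2A, 18 of 18 for H2B, 10 of 11 for H3, and 4 of 13 for H4. The octamer was found in 15 (22.4%, against 1.61%), namely in 8 H2B and 7 H2A genes and in none of the other types. The windows of paired H2A and H2B genes overlap, so the same letters can be counted for both. The H4 element was found in 12 of 13 H4 genes, all but *Hist1h4a*, in 2 H3 genes, and in 1 H2B gene, against 10.1% of all promoters. TATAAA was found in 30 (44.8%, against 9.05%), an E2F form in 12 (17.9%, against 2.57%), and the H1 box in 3 (4.48%, against 0.675%), of which *Hist1h1t* was the only H1 gene. Median GC content was 46%, against 55.3% of all promoters, and the observed-to-expected ratio of CpG was 0.69, against 0.50.

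The genes with no region had these elements too. The H4 element was present at *Hist1h4k*, *Hist1h4m*, and *Hist1h4n*, the octamer at *Hist1h2ba* and *Hist1h2aa*, and TATAAA with 3 CCAAT matches at *Hist1h1b*. *Hist1h2al* had a single CCAAT match. Such a match is a stretch of letters and not a measurement of binding.

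The stem-loop that ends these mRNAs was searched for in the 200 bases after the last coding base, as 6 paired bases around a loop of 4. It was found in 63 of 67 histone genes (94.0%), against 0.787% of all protein-coding genes. It was present in 52 of the 55 open genes and in 11 of the 12 others. Capitals mark the paired bases in the 3 most frequent forms, which are shown because the H4 genes use their own.
39 genes of types other than H4: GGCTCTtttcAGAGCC
9 genes of types other than H4: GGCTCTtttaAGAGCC
8 genes, all H4: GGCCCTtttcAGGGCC
The other 7 genes had 5 rarer forms. No such stem-loop was found after *Hist1h2an*, *Hist1h2al*, *Hist2h2be*, or *Hist2h2bb*.

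Genes that work with the histone genes were described in the same way. All 18 transcription and mRNA processing factors were open, among them *Npat*, *Casp8ap2*, *Hinfp*, *Pou2f1*, *Slbp*, whose product binds the stem-loop, and *Lsm10* and *Lsm11* of the U7 particle that cuts the mRNA. All 18 histone chaperones and all 20 genes of DNA replication and the cell cycle were also open. Of 13 replication-independent histone variants, 8 were open, with *H3f3a*, *H3f3b*, and *H2afz* among them, and *H1fnt*, *H1foo*, *H1fx*, *H2afb1*, and *H2afy2* were not. Beside these counts stands the 56.7% of all protein-coding genes.

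As a check of the label, 6 of 10 macrophage markers were open, *Csf1r*, *Lyz2*, *Marco*, and *Vsig4* being the exceptions. This share (60%, Wilson interval 31.3% to 83.2%) is near the 56.7% of all protein-coding genes, so the count alone does not bear out the label. The list also had open starts for 9 of 10 hepatocyte markers (all but *Serpina1a*), 9 of 10 endothelial markers (all but *Cdh5*), 4 of 10 stellate cell markers (*Col1a1*, *Des*, *Hgf*, and *Pdgfrb*), and 2 of 10 neuron and muscle markers (*Snap25* and *Ttn*). The histone regions therefore belong to a list with open starts of several liver cell types, and the part of each cell type in them was not tested.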

How the data were processed

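Per the authors, reads went through the Kundaje laboratory's ATAC-Seq pipeline, with adapter trimming and Bowtie alignment to mm9. Replicates were merged as alignments, and peaks were called on the merged data. Peak caller, threshold, and the joining of peaks are not given in the sources used here. The deposited list gives a chromosome, start, and end for each of 69499 regions, with no count, signal, or score. Its 0-based starts were raised by 1 before printing. No region passed the end of its chromosome in NCBIM37.

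Genes and starts came from GENCODE vM1, on chromosomes 1 to 19, X, and Y. Uniqueness is the share of 50-base runs seen once in the genome on both strands. Shares have 95% Wilson intervals, and no test was run. Uniqueness, region, and motif steps were tested on simulated or planted data. Python 3.11.15, NumPy 2.4.6, pandas 2.3.3, Numba 0.67.0, and matplotlib 3.10.9 were used.

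The members and gene lists were chosen with earlier results of these data known. Genes were named if they had no region, had the most open bases of their type or the widest region of their cluster within 1 kb of a histone start, formed 1 of the 3 closest pairs with a shared region, were testis members, or were exceptions within a list. *Hist1h3a*, *Hist1h3h*, *Hist1h4h*, *Hist1h4j*, *Hist1h4a*, *Hist2h3c1*, *Hist2h2aa1*, *Hist2h2aa2*, the remaining H1 genes, the *Hist1h2bh/Hist1h3f* pair, the genes without a stem-loop, and the named open factors and variants were chosen after their values were seen. *Nelfe* and *H1f0* had no match by symbol. The pseudogenes *Hist2h3c2*, *Hist3h2bb-ps*, and *Hist1h2aj* were left out.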

Additional observations from a re-analysis of the deposited data

How the results depend on the processing

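With regions of at least 200 bp only, 53.7% of the histone genes were open, against 34.4% of all genes. The share was then 47.4% for H2A, 45.5% for H3, 16.7% from *Hist1h2bl* to *Hist1h2br*, 79.3% from *Hist1h4h* to *Hist1h1a*, and 44.4% in the *Hist2* cluster, with 7.22 regions per 100 kb over the clusters. With each region given to its nearest start only, so that pairs no longer shared one, 65.7% were open, against 53.3% of all genes, with 50% for H2B and 33.3% from *Hist1h2bl* to *Hist1h2br*. Among windows at least 90% unique, 14 of 18 histone genes were open (77.8%, 54.8% to 91.0%). The 63.6% of all genes with such windows lies inside that interval. The share was then 50% for H2A (1 of 2) and 100% for H4 (6 of 6), and no H3 gene was left. It was 0% from *Hist1h2bl* to *Hist1h2br*, where 1 gene was left. A flank of 50 kb gave 9.82 regions per 100 kb, and a gap of 500 kb between clusters 11.4. Within open regions, TATAAA was found for 32.7% of open histone genes, against 3.14% of all open protein-coding genes. Without the 6 repeated genes, a setting chosen after the data were seen, 90.2% were open, and 83.3% from *Hist1h2bl* to *Hist1h2br*. Of the motif shares of single histone types, 4 moved beyond their interval. No paired analysis was possible because regions carry positions and no value per library. Depth is unknown, so a histone gene without a region is not shown to be closed.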
